A study of Mus musculus with 6 samples.

Results

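Mitochondrial complex I passes electrons from NADH to ubiquinone and pumps protons across the inner membrane as it does so. Its subunits are encoded partly by the mitochondrial genome and partly by nuclear genes with the prefix Nduf. The nuclear core subunits carry the flavin and iron-sulfur centres, the accessory subunits surround and stabilise the core, and the assembly factors take part in building the complex without remaining in it. Heart muscle is rich in mitochondria, and the cardiomyocyte is the main site of this complex in the heart.

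The nuclear complex I genes were taken as the protein-coding genes whose symbol is Ndufa, Ndufb, Ndufc, Ndufs, Ndufv or Ndufaf with a number, and Ndufab1, with at least 60 counts summed over the 6 libraries. Of the 38293 genes in the count table, 45 met this rule, and all 45 passed the filter on low counts that left 14746 genes for testing. They comprise 7 core subunits, 29 accessory subunits, 8 assembly factors (Ndufaf1 to Ndufaf8) and Ndufa4, which is now assigned to complex IV and is counted among the 45 but in none of the 3 classes. The genes lie on 17 chromosomes. The lowest count of any of them in any library was 86, a count at which counting error (10.8%) is not small beside the spread between mice (SD of 18.8% of the mean in WT and 13.8% in Zeb2 cKO for that gene, Ndufaf8). Ndufb1, a further accessory subunit, was not analysed here. Ndufa4l2 lies outside the rule.

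RNA-seq was available for hearts of 3 WT and 3 Zeb2 cKO mice of the strain C57BL/6J (backcrossed), 14 days after permanent occlusion of the LAD coronary artery. The methods describe male mice, 8 to 10 weeks old. Both groups carried floxed Zeb2 alleles (Zeb2 fl/fl): the samples that the labels call WT are the Zeb2 fl/fl mice of the methods, and Zeb2 cKO mice also carried a Cre recombinase under the murine Myh6 promoter, which directs deletion to cardiomyocytes, while RNA came from all cells of the tissue. No group with Cre and without floxed alleles, and no group without infarction, was analysed here. The labels place the tissue in the border region of the infarct, and the methods place it in the remote zone. Libraries held 37288174 to 51136331 counts. CPM here means counts per library size after TMM normalization, printed in the order of replicates 1, 2 and 3.

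Zeb2, the deleted transcription factor, was at 61.3, 116 and 71.9 CPM in WT and at 59.6, 72.6 and 66.5 CPM in Zeb2 cKO libraries. The groups overlapped, with a log2 fold change of -0.33 (SE 0.25, adjusted p = 0.957 in edgeR's quasi-likelihood test, exact permutation p = 0.5, two-sided), -0.0058 without WT 2 and -0.50 without WT 1, so that whole-tissue counts gave no check of the genotype labels. Of 18 cardiomyocyte marker genes, all were detected in every library, and their summed level was 75862, 38524 and 69487 CPM in WT and 74844, 66225 and 62220 CPM in Zeb2 cKO. WT 2 stood apart in genes outside the family. Its fibroblast and matrix markers summed to 13715 CPM, against 2391 to 3636 CPM in the other 5 libraries, and all 16 of them were highest there. Its macrophage markers summed to 1026 CPM, against 247 to 351 CPM, again with all 14 highest in WT 2. In tissue RNA, fewer cardiomyocytes and less RNA per cardiomyocyte cannot be told apart, so the class levels and the comparisons between genotypes are also given without WT 2.

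The first question was how strongly the 3 classes are expressed. To compare genes with each other, CPM was divided by the length of the annotated exons in kilobases. Core and accessory subunits had similar median levels per length, and the assembly factors lay far below them. In WT hearts the median was 50.6 CPM per kilobase over the 7 core subunits, 47.96 over the 29 accessory subunits and 3.604 over the 8 assembly factors. Without WT 2 the WT medians were 56.7, 50.3 and 4.06 CPM per kilobase. In Zeb2 cKO hearts the medians were 53.6, 52.1 and 4.17 CPM per kilobase. The same order was found with the longest transcript as the length, at 91.9, 62.7 and 5.05 CPM per kilobase in WT.

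The spread within a class exceeded that between the core and accessory medians. Among core subunits, Ndufv2, which carries an iron-sulfur cluster, was at 80.5 ± 13.2 CPM per kilobase in WT (SD, n = 3) and 90.1 ± 12.8 in Zeb2 cKO. Ndufs3, of the module where ubiquinone is reduced, was lowest at 9.69 ± 2.77 and 11.1 ± 1.19 CPM per kilobase. The accessory range was wider. Ndufb9, of the membrane arm, reached 181 ± 44.8 CPM per kilobase in WT and 206 ± 27.0 in Zeb2 cKO. It was the highest of the 45 genes by exon length. With the longest transcript as length, Ndufa4 lay above it in WT, at 200 against 187 CPM over 610 against 704 bases. Ndufab1, the mitochondrial acyl carrier protein, lay at 3.37 ± 0.432 and 3.55 ± 0.406 CPM per kilobase. Means of WT 1 and WT 3 alone were 87.9 CPM per kilobase for Ndufv2, 11.3 for Ndufs3, 207 for Ndufb9 and 3.54 for Ndufab1. Ndufs3, Ndufb9 and Ndufab1 carry stretches shared with another gene, as described further on, over 83.8%, 28.7% and 13.5% of the transcript. Their levels are therefore less certain.

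Among the assembly factors, Ndufaf1, a member of the complex that assembles the membrane arm, was highest at 12.7 ± 3.41 CPM per kilobase in WT and 13.5 ± 1.94 in Zeb2 cKO. Ndufaf2, which acts late in assembly, was lowest by exon length, at 1.17 ± 0.145 and 1.30 ± 0.139 CPM per kilobase. Without WT 2 the WT means by exon length were 14.7 for Ndufaf1 and 1.19 for Ndufaf2. With the longest transcript as length, Ndufaf2 was not the lowest, and Ndufaf7 and Ndufaf8 were among the genes below it in WT. Ndufaf7 had 7.505 CPM over 2706 bases, against 3.47 CPM over 678 bases for Ndufaf2. Ndufaf8 had fewer CPM than Ndufaf2 over a longer transcript (781 bases). By exon length Ndufaf1, the highest assembly factor, lay above Ndufs3, Ndufb7, Ndufb4, Ndufs5, Ndufb2 and Ndufab1 in mean WT level, although its SD reached several of them. Without WT 2 the order with Ndufb7 turned, at 15.0 for Ndufb7 and 14.7 for Ndufaf1. With the longest transcript as length, Ndufs3 and Ndufb7 lay above Ndufaf1 in WT. They had more CPM (21.1 and 55.4 against 19.1) over shorter transcripts (1046 and 623 against 1478 bases). Ndufa4 was at 145 ± 31.4 CPM per kilobase in WT and 162 ± 20.6 in Zeb2 cKO (163 in WT without WT 2), in the range of the most abundant complex I subunits.

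**Figure D1:**
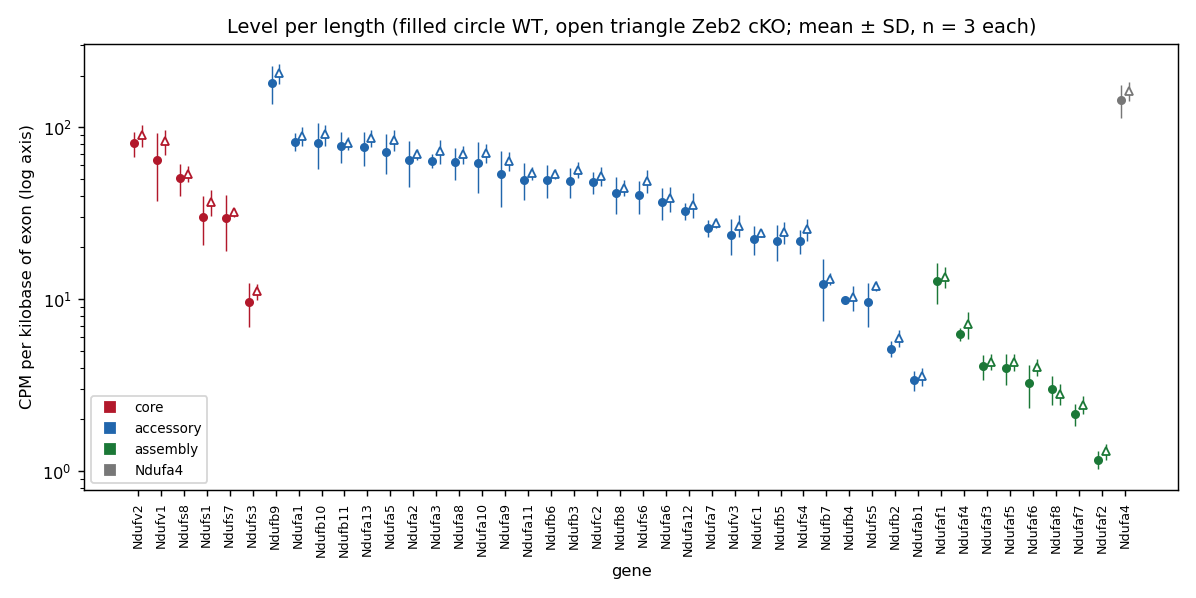
Mean level of 44 of the 45 Nduf genes in CPM per kilobase of exon (log axis), ordered by class and by WT level, with filled circles for WT, open triangles for Zeb2 cKO and bars for the SD over 3 libraries, WT 2 included. Core and accessory subunits overlap over most of their range, the 8 assembly factors sit between 1.17 and 12.7 CPM per kilobase in WT.

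The second question was whether deletion of Zeb2 in cardiomyocytes changed these genes. No Nduf gene passed the test: 0 of 45 had an adjusted p under 0.05 (0% of all genes tested), and 0 had an unadjusted p under 0.05, which 1.04% of all genes reached in the higher and 0.861% in the lower direction. The smallest unadjusted p was 0.180, and adjusted p ran from 0.957 to 0.980 (quasi-likelihood test of edgeR, Benjamini-Hochberg). In none of the 45 did the 3 Zeb2 cKO libraries lie all above or all below the 3 WT libraries, a separation found upward in 3.39% and downward in 2.97% of all genes. Exact permutation p ran from 0.2 to 1 (two-sided), where 3 against 3 cannot go below 0.1.

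The fold changes themselves leaned to one side. With all 6 libraries, 44 of 45 genes had a log2 fold change over 0, against 48.6% of all genes, and 11 had one over 0.2, against 15.9%. The exception was Ndufaf8 at -0.088. None was under -0.2, where 22.6% of all genes lay. The median log2 fold change was 0.16 over the 45 genes, 0.20 over the core, 0.15 over the accessory and 0.14 over the assembly genes, and -0.0069 over all genes tested. Without WT 2, however, 22 genes were over 0 (50.9% of all genes) and 23 under 0. The medians were then -0.0013 for the 45 genes, 0.037 for the core, -0.0013 for the accessory and 0.022 for the assembly genes, and 0.0025 for all genes. None was then over 0.2 (14.2% of all genes), 1 was under -0.2 (11.7%), and 0 had an unadjusted p under 0.05 (2.63% of all genes) in edgeR. The lean toward Zeb2 cKO was present with WT 2 and absent without it. The low library of the other group mattered as well: without Zeb2 cKO 3, 31 genes were over 0.2 (20.6% of all genes), the groups did not overlap in 23, all higher in Zeb2 cKO (11.8%), and still 0 had an adjusted p under 0.05. Leaving out WT 1 or WT 3 left 28 (26.5% of all genes) and 33 genes (21.8%) over 0.2, and leaving out Zeb2 cKO 1 left 6 (15.4%).

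**Figure D2:**
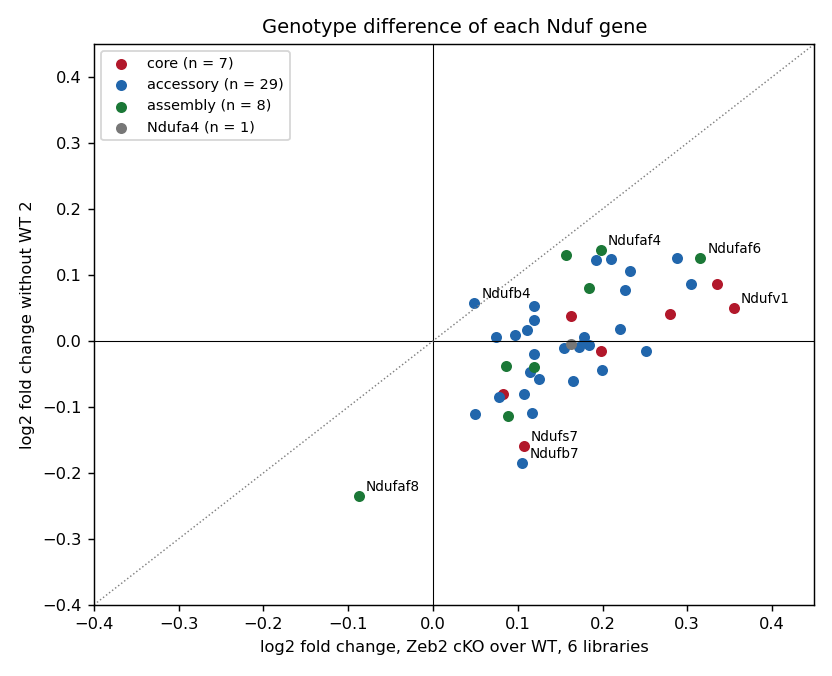
Log2 fold change of each Nduf gene, Zeb2 cKO over WT, with all 6 libraries (x axis) against that without WT 2 (y axis), coloured by class, with a dotted line where both are equal. With 6 libraries 44 of the 45 points lie right of 0, and without WT 2 the points run from -0.24 (Ndufaf8) to 0.14 (Ndufaf4).

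Among the core subunits of the NADH-oxidising N module, Ndufv1, whose protein binds NADH and the flavin, was at 231, 89.5 and 192 CPM in WT and 247, 231 and 176 CPM in Zeb2 cKO. WT 2 alone was low, and the other WT libraries lay within the range of Zeb2 cKO. The log2 fold change was 0.35 (SE 0.35), the largest of the 45, and 0.050 without WT 2. Ndufv2, whose iron-sulfur cluster lies next to it, was at 183, 141 and 195 CPM in WT and 219, 196 and 165 CPM in Zeb2 cKO. Here WT 2 was again lowest but by less, with a log2 fold change of 0.16 (SE 0.19) and 0.037 without WT 2. Ndufs1, the largest nuclear core subunit, was at 298, 156 and 280 CPM in WT and 319, 332 and 239 CPM in Zeb2 cKO. Its log2 fold change of 0.28 (SE 0.28) became 0.041 without WT 2.

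In the Q module, where ubiquinone is reduced, Ndufs7, which holds the last iron-sulfur cluster before ubiquinone, was at 65.5, 30.2 and 57.9 CPM in WT and 58.8, 54.8 and 51.9 CPM in Zeb2 cKO. WT 1 was its highest library and WT 2 its lowest, so that the log2 fold change of 0.11 (SE 0.27) turned to -0.16 without WT 2 (unadjusted p = 0.171 in edgeR's quasi-likelihood test). Ndufs3 was at 25.8, 14.3 and 23.2 CPM in WT and 27.0, 23.6 and 21.9 CPM in Zeb2 cKO. Ndufs8, a further iron-sulfur subunit, was at 74.9, 49.6 and 71.6 CPM in WT and 73.7, 73.4 and 60.4 CPM in Zeb2 cKO. The log2 fold changes of these last genes, 0.20 (SE 0.23) and 0.082 (SE 0.19), were -0.016 and -0.080 without WT 2.

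In the accessory class, 7 of 29 genes had a log2 fold change over 0.2, against 15.9% of all genes. The accessory genes with the smallest unadjusted p were Ndufb2, Ndufs6 and Ndufs5. Ndufb2, a small subunit of the membrane arm, was at 30.7, 25.3 and 31.0 CPM in WT and 37.4, 33.7 and 29.6 CPM in Zeb2 cKO. Zeb2 cKO 3 lay below WT 1 and WT 3, so the groups overlapped, and the log2 fold change was 0.21 (SE 0.14). Ndufs6, a zinc-binding subunit of the N module, was at 38.0, 27.3 and 42.8 CPM in WT and 50.5, 44.4 and 37.0 CPM in Zeb2 cKO, with a log2 fold change of 0.29 (SE 0.20). Ndufs5, at the intermembrane face of the membrane arm, was at 9.50, 5.58 and 9.87 CPM in WT and 10.9, 10.4 and 9.47 CPM in Zeb2 cKO, with a log2 fold change of 0.30 (SE 0.22). Without WT 2 the log2 fold changes were 0.12 for Ndufb2, 0.13 for Ndufs6 and 0.086 for Ndufs5. Over all 29 accessory genes they ran from 0.049 (Ndufb4) to 0.30 with 6 libraries and from -0.19 (Ndufb7) to 0.13 without WT 2.

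The assembly factors with the smallest unadjusted p were Ndufaf6, Ndufaf4 and Ndufaf7. Ndufaf6, needed for early assembly, was at 3.98, 2.87 and 5.13 CPM in WT and 5.24, 5.35 and 4.32 CPM in Zeb2 cKO, with a log2 fold change of 0.32 (SE 0.23). Ndufaf4, which acts with Ndufaf3 on the Q module, was at 24.2, 22.2 and 26.7 CPM in WT and 33.0, 28.0 and 22.9 CPM in Zeb2 cKO, with a log2 fold change of 0.20 (SE 0.16). Its Zeb2 cKO libraries spread more widely than its WT libraries and enclosed WT 1 and WT 3. Ndufaf7, a methyltransferase, was at 7.59, 6.38 and 8.54 CPM in WT and 8.95, 9.26 and 7.35 CPM in Zeb2 cKO, with a log2 fold change of 0.18 (SE 0.16). These genes kept a positive log2 fold change without WT 2, of 0.13, 0.14 and 0.081. Ndufaf8, a partner of the NDUFS7-modifying factor Ndufaf5, was at 2.76, 1.96 and 2.79 CPM in WT and 2.68, 2.35 and 2.03 CPM in Zeb2 cKO. WT 2 and Zeb2 cKO 3 were its low libraries, and its log2 fold change of -0.088 (SE 0.21) became -0.24 without WT 2 (unadjusted p = 0.233 in edgeR's quasi-likelihood test).

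Without WT 2, the groups did not overlap in 4 of the 45 genes, against 15.5% of all genes in either direction. All 4 (Ndufa2, Ndufb7, Ndufb11 and Ndufaf8) were lower in Zeb2 cKO, as were 7.22% of all genes, and they are named after their values were seen. The SE of the log2 fold change without WT 2 was between 0.098 and 0.18, so that differences of about this size could not be told from 0 in these libraries.

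The same libraries were low across the family. WT 2 was the lowest of the 6 libraries in 43 of 45 Nduf genes, against 34.6% of all genes tested. The exceptions were the accessory subunit Ndufb4, lowest in Zeb2 cKO 3, and the assembly factor Ndufaf2, lowest in WT 1. Within Zeb2 cKO, replicate 3 was the lowest in 45 of 45 Nduf genes, as it was in 37.4% of all genes, and replicate 1 was the highest in 33 of 45. Across all 6 libraries the highest was Zeb2 cKO 1 in 26 genes, Zeb2 cKO 2 in 8, WT 3 in 6 and WT 1 in 5.

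**Figure D3:**
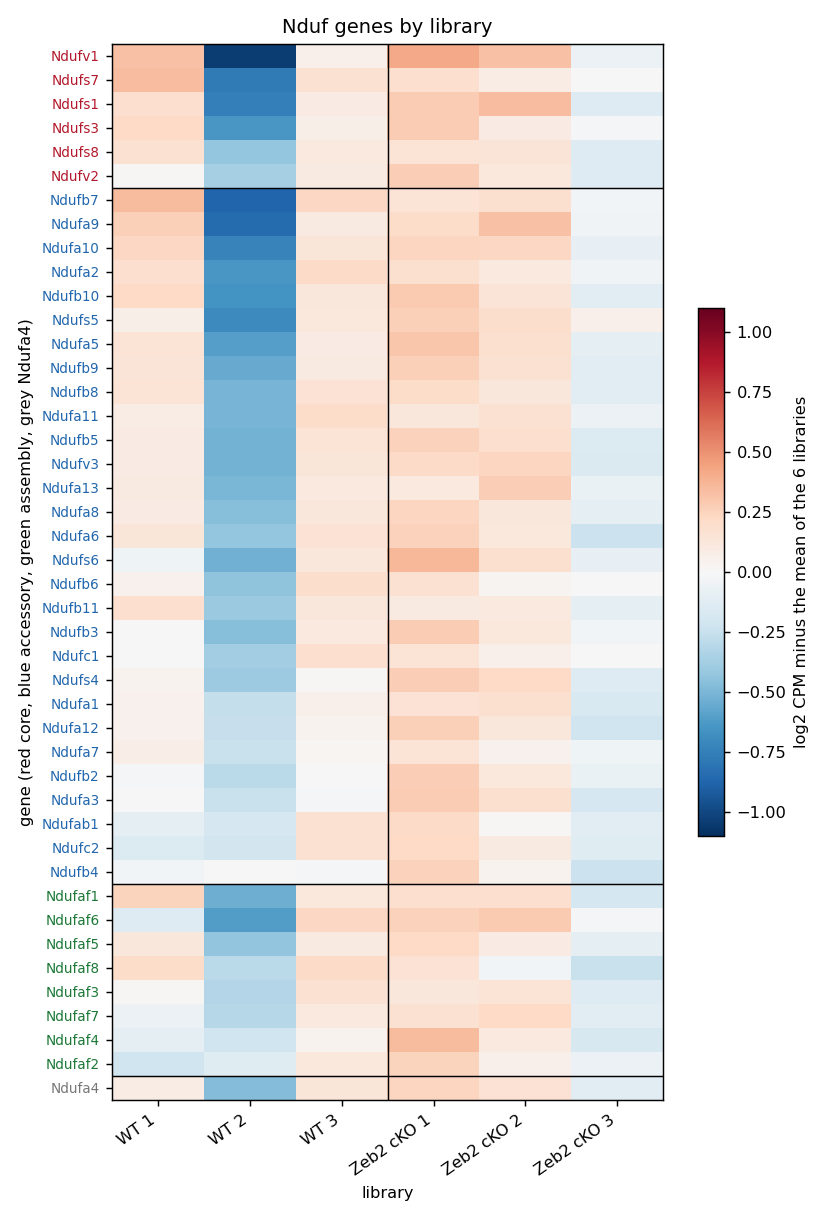
Log2 CPM of 44 of the 45 Nduf genes (rows, ordered by class and by the size of the WT 2 difference) in the 6 libraries (columns), relative to each gene's mean over the libraries. WT 2 is the lowest library in 42 rows, Zeb2 cKO 1 lies above the mean in every row, and Zeb2 cKO 3 is the lowest Zeb2 cKO library in all 44 rows.

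The depth of the fall in WT 2 differed between genes. On the log2 scale, WT 2 lay below the mean of WT 1 and WT 3 by a median of -0.57 over the 45 genes, where the median over all genes was -0.0042. The median was -0.89 in the core, -0.57 in the accessory and -0.45 in the assembly class. By place in the complex it was -0.60 for the 8 genes of the N module, -0.75 for the 8 of the Q module and -0.58 for the 19 of the membrane arm. The farthest below were Ndufv1 (-1.23, or 0.424 of the mean of WT 1 and WT 3), Ndufb7 (-1.16), Ndufa9 (-1.03) and Ndufs7 (-1.03). At the other end, Ndufb4 was at 18.9, 19.2 and 19.0 CPM in WT and 22.9, 19.8 and 16.4 CPM in Zeb2 cKO, with a log2 difference of 0.018 between WT 2 and the other WT libraries.

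Because the genes fell by different amounts, the ratios between subunits of the same complex shifted in WT 2. The ratio of Ndufv1 to Ndufb4 CPM was 12.2, 4.67 and 10.1 in WT and 10.8, 11.7 and 10.8 in Zeb2 cKO. The ratio of Ndufs1 to Ndufv2, both of the N module, was 1.63, 1.11 and 1.44 in WT and 1.46, 1.69 and 1.45 in Zeb2 cKO. The summed CPM of core subunits over that of assembly factors was 14.7, 10.2 and 12.9 in WT and 13.7, 14.3 and 13.7 in Zeb2 cKO. In each ratio WT 2 was the lowest library, while WT 1, WT 3 and the Zeb2 cKO libraries overlapped. The SD of log2 CPM over the 3 WT libraries had a median of 0.52 in the core, 0.33 in the accessory and 0.27 in the assembly class, and over the 3 Zeb2 cKO libraries of 0.21, 0.18 and 0.18.

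**Figure D4:**
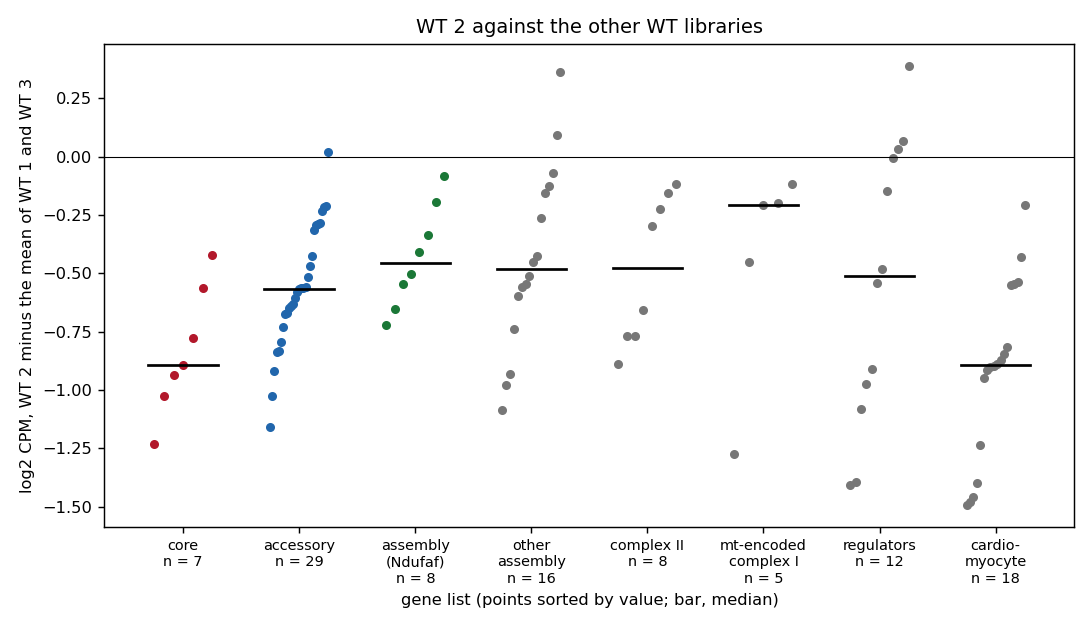
Difference in log2 CPM between WT 2 and the mean of WT 1 and WT 3 for each tested gene of the Nduf classes and of other lists (points sorted within each list; bars mark medians). The core median lies at -0.89, as does that of the cardiomyocyte markers, the accessory median at -0.57 and the Nduf assembly median at -0.45, and among the Nduf genes only Ndufb4 lies above 0.

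Summed over the 45 genes, the Nduf level was 3690, 2258 and 3596 CPM in WT (3182 ± 801, SD, n = 3) and 3976, 3842 and 3108 CPM in Zeb2 cKO (3642 ± 467, SD, n = 3). These sums were 0.970%, 0.674% and 0.966% of the counts outside the mitochondrially encoded genes in WT, and 1.07%, 1.07% and 0.878% in Zeb2 cKO. The cardiomyocyte markers moved in the same direction in WT 2 as the Nduf genes. Set against the summed cardiomyocyte markers, the Nduf sum was 4.86%, 5.86% and 5.18% in WT and 5.31%, 5.80% and 4.995% in Zeb2 cKO. On this scale WT 2 was the highest library for the Nduf sum and not the lowest, and the genotypes overlapped. WT 2 was also highest for the accessory (3.67%) and assembly genes (0.160%). For the core it was not, at 1.64% against 1.71% and 1.88% in Zeb2 cKO 1 and 2. The scale depends on its markers. In WT 2, Ttn alone held 22884 CPM of their sum. Their log2 differences from WT 1 and WT 3 ran from -0.21 (Myl2) to -1.49 (Myh6). The part of tissue composition in the Nduf levels was not tested beyond these values.

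**Figure D5:**
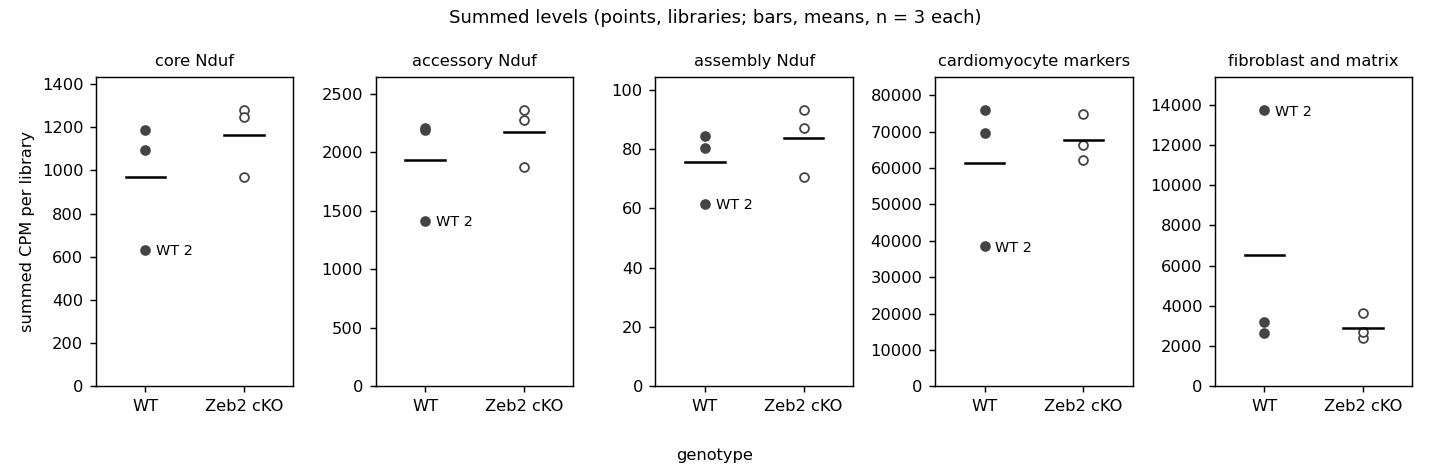
Summed CPM per library of the core, accessory and assembly Nduf genes and of the cardiomyocyte and the fibroblast and matrix marker lists, with a point for each library (filled, WT; open, Zeb2 cKO) and a bar for the mean of 3. WT 2 is the lowest point in the Nduf and cardiomyocyte panels and the highest, at 13715 CPM, in the fibroblast and matrix panel.

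The membrane-embedded core of complex I is encoded by the mitochondrial genome, and its transcripts were counted in the same libraries. Of the 7 genes, mt-Nd4l had no count and mt-Nd3 at most 1 count in any library, and 5 were tested. None had an adjusted p under 0.05, 1 had a log2 fold change over 0 and 4 had one under 0, and WT 2 was lowest in 2 of the 5. mt-Nd4 was at 2178, 2108 and 2688 CPM in WT and 1894, 1577 and 2069 CPM in Zeb2 cKO. Its groups did not overlap, as in 2.97% of all genes downward, and its log2 fold change was -0.33 (SE 0.23) with 6 libraries and -0.39 without WT 2 (unadjusted p = 0.0488, adjusted p = 1.00 in edgeR's quasi-likelihood test). mt-Nd1, the subunit next to the Q module, was at 6264, 5652 and 6819 CPM in WT and 9141, 7320 and 5682 CPM in Zeb2 cKO, with a log2 fold change of 0.24 (SE 0.30). Without WT 2, mt-Nd6 went from -0.18 to -0.49 (unadjusted p = 0.0414, adjusted p = 1.00 in edgeR's quasi-likelihood test), and the median of the 5 from -0.18 to -0.32. Near-identical stretches in another gene covered 99.1% of the mt-Nd3, 98.99% of the mt-Nd4l and 63.6% of the mt-Nd4 transcript. They also covered 52.3% of mt-Nd5 and 49.1% of mt-Nd2, but none of mt-Nd1 and mt-Nd6. The counts of the covered genes, and the medians that include them, are therefore uncertain. Mitochondrially encoded genes made up 60.5% to 67.0% of the counts of a library.

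Other assembly factors lack the Nduf prefix. Of 16 tested, 13 had a log2 fold change over 0, with a median of 0.12, and -0.011 without WT 2, and none had an adjusted p under 0.05. Pyurf, which interacts with Ndufaf5, was at 11.8, 8.59 and 11.7 CPM in WT and 14.0, 13.3 and 11.3 CPM in Zeb2 cKO, with a log2 fold change of 0.27 (SE 0.16). Tmem186, an assembly factor of the membrane arm, was at 10.1, 7.20 and 10.9 CPM in WT and 11.7, 11.9 and 10.5 CPM in Zeb2 cKO, with a log2 fold change of 0.27 (SE 0.18). Without WT 2 these were 0.14 for Pyurf and 0.11 for Tmem186. WT 2 was the lowest library in 11 of the 16, against 34.6% of all genes.

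Complex II, the other entry of electrons to ubiquinone, is encoded by nuclear genes alone. All 8 of its subunit and assembly genes had a log2 fold change over 0, with a median of 0.18 (0.023 without WT 2), and none had an adjusted p under 0.05. Sdhaf1, which helps to insert iron-sulfur clusters, was at 4.94, 4.37 and 5.29 CPM in WT and 6.71, 5.88 and 5.32 CPM in Zeb2 cKO. All 3 Zeb2 cKO libraries lay above WT (3.39% of all genes), though Zeb2 cKO 3 and WT 3 nearly touched, and the log2 fold change was 0.30 (SE 0.15), or 0.23 without WT 2. A near-identical stretch in another gene covers 69.6% of its transcript. Sdhc, a membrane anchor, was at 116, 64.99 and 106 CPM in WT and 131, 126 and 90.4 CPM in Zeb2 cKO, with a log2 fold change of 0.28 (SE 0.26), or 0.069 without WT 2.

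Of 12 transcriptional regulators of mitochondrial genes, 7 had a log2 fold change over 0, with a median of 0.027. Without WT 2 only 1 was over 0 and 11 were under 0, with a median of -0.091, and in neither fit did any have an adjusted p under 0.05. Yy1 was at 14.0, 19.0 and 15.1 CPM in WT and 13.1, 12.9 and 14.8 CPM in Zeb2 cKO, with a log2 fold change of -0.24 (SE 0.15) and -0.096 without WT 2. Perm1, a muscle regulator of oxidative genes, was at 123, 57.7 and 105 CPM in WT and 129, 125 and 86.6 CPM in Zeb2 cKO, with a log2 fold change of 0.26 (SE 0.30) and 0.0017 without WT 2. The regulators differed in WT 2. Ppargc1b, Esrra, Esrrb, Perm1 and Ppargc1a lay below the mean of WT 1 and WT 3 by -1.40, -1.40, -1.08, -0.97 and -0.91 on the log2 scale, whereas Nrf1 was at -0.0042, Pprc1 at 0.031, Gabpb1 at 0.067 and Yy1 at 0.39.

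NRF1, the ETS factor GABP, the ERR receptors and YY1 are known regulators of nuclear genes for mitochondrial proteins, and their short binding motifs were looked for in the promoters of the family, since its members moved together between libraries. RefSeq windows of 300 bases around the transcription start (GRCm38.p6, 250 bases upstream and 50 downstream) were at hand for 40 of the 45 genes, and both strands were searched for each motif separately. No matches of different motifs overlapped in the stretches shown here. The NRF1 motif (GCGCA, any base, GCGC) was found in 9 genes (22.5%, against 4.6% of all windows and 9.23% of the windows of tested genes). The YY1 motif AANATGGCG was found in 8 (20%, against 2.38% and 4.65%), the ETS motif CCGGAAG in 6 (15%, against 8.86% and 16.3%) and the ERR motif AAGGTCA in 3 (7.5%, against 4.72% and 3.26%). At least 1 of the 4 motifs was found in 22 of 40 genes (55%, against 18.5% and 29.2%). A match describes the letters in a window and not a site in use. Ndufs1, Ndufb9, Ndufa2 and Ndufaf6 were among the genes with no window.

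The 120 bases upstream of the start are shown for 5 genes, 5′ to 3′ on the strand of the gene, with motif matches in capitals and positions counted back from the start site as -1. Ndufv1 and Ndufb4 stand for the ends of the range in WT 2, Ndufs3 for the Q module core, Ndufs6 for the accessory genes with a small p, and Ndufaf4 for the assembly factors.
Ndufv1 (chr19:4012756-4012875, minus strand): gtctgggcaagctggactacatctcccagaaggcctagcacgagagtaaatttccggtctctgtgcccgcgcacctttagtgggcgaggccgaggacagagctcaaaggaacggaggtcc
Ndufs3 (chr2:90904722-90904841, minus strand): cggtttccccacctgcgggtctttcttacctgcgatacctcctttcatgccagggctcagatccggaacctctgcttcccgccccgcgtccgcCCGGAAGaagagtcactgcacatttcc
Ndufs6 (chr13:73328483-73328602, minus strand): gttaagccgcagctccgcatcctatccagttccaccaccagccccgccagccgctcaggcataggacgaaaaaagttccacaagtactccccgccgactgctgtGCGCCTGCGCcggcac
Ndufb4 (chr16:37654369-37654488, minus strand): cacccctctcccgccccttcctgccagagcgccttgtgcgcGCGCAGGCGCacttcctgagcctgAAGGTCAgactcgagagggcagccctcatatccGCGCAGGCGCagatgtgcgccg
Ndufaf4 (chr4:24897963-24898082, plus strand): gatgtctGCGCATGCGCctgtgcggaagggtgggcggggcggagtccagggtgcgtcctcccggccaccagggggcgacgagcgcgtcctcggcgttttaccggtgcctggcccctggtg

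Ndufv1, the gene farthest below in WT 2, held none of the 4 motifs in its window. Ndufb4, the gene that did not fall, held NRF1 matches at -79 and -22 and an ERR match at -55 in the stretch shown, and a further NRF1 match at -191. Ndufs3 held ETS matches at -27 and, downstream of the start, at +2. Ndufs6 held an NRF1 match at -16 and a YY1 match downstream at +34, and Ndufaf4 an NRF1 match at -113. Ndufb7, which fell nearly as far as Ndufv1, held an ETS match at -20. Ndufa9 and Ndufs7, also among the farthest below, held YY1 matches at +30 and +25. Ndufaf2 and Ndufc2, which fell little in WT 2 (-0.082 and -0.21), held none. Whether motifs go with the fall in WT 2 was not tested.

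Some members share sequence with another gene, which can split or add reads. The longest transcript of 17 of the 45 held a stretch of at least 75 bases (the read length) with at least 95% identity to another gene's transcript. These were 2 of 7 core, 14 of 29 accessory and 1 of 8 assembly genes. The partners were processed pseudogenes for Ndufs3 (83.8% of the transcript within such stretches), Ndufs5 (46.9%), Ndufb4 (40.2%), Ndufs6 (37.9%), Ndufb3 (37.0%), Ndufa12 (36.2%) and Ndufab1 (13.5%), among others. They were overlapping or adjacent genes for others, such as Tssk6 for Ndufa13 and Smim27 for Ndufb6, both on the opposite strand. For Ndufb9 (28.7%) the partner was Gm49356, on the same strand. The levels of these genes are therefore less certain, Ndufb4 among them. Among the 28 genes without such stretches, 27 had a log2 fold change over 0 and 6 one over 0.2, and without WT 2 the counts were 12 and 0.

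Base composition and level were described over the 45 genes, which share their libraries and are not replicates. The log2 difference of WT 2 from WT 1 and WT 3 had a Pearson r of -0.41 (Spearman's rho -0.40) with the GC content of the transcript, and of -0.44 (rho -0.50) with log2 mean CPM. Over all genes tested the same values were -0.16 (rho -0.20) and -0.16 (rho -0.18). With log10 transcript length r was 0.018 over the 45 genes. GC content ran from 39.5% in Ndufaf4 to 60.4% in Ndufa13, with medians of 53.8% in the core, 51.3% in the accessory and 47.3% in the assembly class, so that the class with the largest fall in WT 2 was also the richest in GC. The part of base composition in the difference between classes was not tested.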

How the data were processed

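RNA-seq was performed by the authors on tissue of 3 WT and 3 Zeb2 cKO hearts, each from a separate mouse, and groups were assigned from the sample labels. According to the methods, stranded libraries of ribosomal RNA-depleted RNA were sequenced as single-end reads of 75 bases, aligned with the STAR workflow and counted on Gencode M4 (GRCm38). The authors deposited raw counts per gene, without normalization. The version, the strand option and the treatment of multi-mapping reads are not given in the sources used here. The submitters' processing notes name DESeq 1.2, which was not used here.

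All further values were computed from these counts. Normalization used the TMM method of edgeR 4.0.16, run in R 4.3.3, genes were kept by filterByExpr, and genotype was tested with glmQLFit and glmQLFTest, with Benjamini-Hochberg adjustment over 14746 genes. Fold changes used a prior count of 0.125. Symbols, coordinates, classes of transcript and exon lengths came from Gencode M21 by gene identifier. Levels per length are CPM over the union of annotated exons. Near-identical stretches were searched with BLAST 2.17.0, and promoter windows were taken from RefSeq (GRCm38.p6). Single genes were compared by exact permutation tests, two-sided. Libraries held 37288174 to 51136331 counts, and the spread between mice set the precision for all but the genes of lowest count. Alternatives were RLE size factors, DESeq2 1.42.0, no filter, the replicate number as a block, removal of mitochondrially encoded genes, scaling to cardiomyocyte genes, the longest transcript as length, leaving out genes with near-identical stretches and leaving out each library. The steps were tested on simulated data.

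The members and the gene lists were chosen with earlier results of these data known. Values in every library are given for Zeb2, the core subunits, the 3 accessory and the 3 assembly genes with the smallest unadjusted p, genes whose groups do not overlap, and the 2 genes with the smallest p of each other pathway list. The highest and the lowest gene of each class, ranked by exon length, are given per length. Of the 45 genes, 1 enters the counts and medians, but its own values are not reported here. Genes named beside these rules were chosen after their values were seen: Ndufb4 and Ndufaf8, the regulators listed for WT 2, and the ends of other ranges. Only genes that reached 60 counts over the 6 libraries entered the family, and this minimum removed none of the 45.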

Additional observations from a re-analysis of the deposited data

Results flagged for a closer look

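Reads were also counted on processed pseudogenes of the family, which the comparisons of the report do not use. Ndufs6b, a copy of Ndufs6, held 1930 counts in the 6 libraries, at 270, 214 and 286 counts in WT and 445, 335 and 380 in Zeb2 cKO, or 17.4% to 19.1% of the count of Ndufs6 in the same library. Its level was 7.17, 4.88 and 7.45 CPM in WT and 8.89, 7.72 and 7.07 CPM in Zeb2 cKO, with a log2 fold change of 0.28 (SE 0.19) and groups that overlapped. Ndufa11b held 373 counts, 2.20% to 2.82% of Ndufa11, and Ndufab1-ps held 196 counts, 2.505% to 3.79% of Ndufab1. In all 3 pseudogenes WT 2 was the lowest library in CPM, as in the parent genes. Ndufb4c, a copy of Ndufb4, had 0 counts in every library. Whether these reads came from the pseudogenes or from the parent genes was not tested.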

How the results depend on the processing

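Over the settings tried, 0 of the 45 Nduf genes had an adjusted p under 0.05 in edgeR or DESeq2. The count of genes with a log2 fold change over 0 was 22 to 45 when 1 library was left out (22 without WT 2) and 27 of 28 without the genes that have near-identical stretches (12 of 28 also without WT 2, a choice made after seeing the data). The count over 0.2 was 17 without a filter on low counts (28.2% of all genes), 28 with scaling to the cardiomyocyte genes (22.3%, relative to the median of all genes, which that scaling moved by -0.26), 6 of the 28 genes without near-identical stretches (0 also without WT 2), and 0 to 33 when 1 library was left out. It was 0 without WT 2, 28 without WT 1 (26.5%), 33 without WT 3 (21.8% of all genes), 6 without Zeb2 cKO 1 (15.4%) and 31 without Zeb2 cKO 3 (20.6%). The count under -0.2 was 0 to 1. Genes with groups that do not overlap numbered 3 with scaling to the cardiomyocyte genes (2 higher and 1 lower, against 1.32% and 1.17% of all genes) and 0 to 23 with 1 library left out: 4, all lower, without WT 2 (7.22%), 4, all higher, without WT 3 (6.68%) and 23, all higher in Zeb2 cKO, without Zeb2 cKO 3 (11.8% of all genes upward). Left-out libraries gave log2 fold changes of -0.016 to 0.37 for Ndufs3, -0.16 to 0.32 for Ndufs7, -0.080 to 0.19 for Ndufs8 (each lowest without WT 2 and highest without WT 1) and -0.24 to 0.0082 for Ndufaf8 (lowest without WT 2, highest without Zeb2 cKO 3). The cause was not tested, beyond the levels of WT 2 and Zeb2 cKO 3 given in the report. Median levels per length in WT were 91.9, 62.7 and 5.05 CPM per kilobase (core, accessory, assembly) with the longest transcript as length, and 140.05, 133 and 9.97 without mitochondrially encoded genes.

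Replicate numbers occur in both groups but belong to different mice. The deviations of same-numbered libraries correlated at 0.088, -0.14 and -0.087, and the block was left out of the fit reported. With the replicate block, 44 genes were over 0, 15 over 0.2 (18% of all genes) and 0 had an adjusted p under 0.05. The median log2 fold change of the 45 was then 0.18.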
